A study of Mus musculus with 12 samples.

Results

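Nucleotide excision repair (NER) and the general transcription factor TFIIH, which works in both NER and RNA polymerase II transcription, were followed in pancreatic tumour cells treated with cisplatin (Cis). The genes were chosen by symbol from a list of 31 NER and TFIIH genes, and all 31 were found among the 15803 genes with a read in at least 1 library. KPC cells are a mouse pancreatic ductal adenocarcinoma line, and every group came from this single line. Cells received 20 μM Cis for 6 h or 21 h, or PBS, which the sample labels call no treatment. Ribosome profiling (sequencing of the mRNA fragments protected by ribosomes, called footprints) and RNA-seq were each done on 2 libraries per group, 12 in all. How long the PBS cells were kept is missing from the labels, and their libraries served as the control for both times.

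NER removes bulky DNA damage, including the intrastrand crosslinks that platinum drugs form. Damage is found across the genome by XPC and the DDB1-DDB2 complex, or on transcribed strands when RNA polymerase II stalls and CSB (Ercc6) and CSA (Ercc8) are recruited. TFIIH then opens the DNA, XPA and RPA hold the opened strands, the nucleases XPG (Ercc5) and XPF-ERCC1 (Ercc4, Ercc1) cut out the damaged stretch, and the gap is filled and sealed.

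Each value is RPKM, the reads of a gene divided by the length of its coding sequence (footprints) or transcript (RNA-seq) and by the total of the library, as deposited by the authors. Footprint libraries held 3375480 to 5204127 reads and RNA-seq libraries 1985344 to 2901692, of which 51.8% to 56.6% fell on Lars2, Tmem38b and Mettl26. A change is a difference in log2(scaled RPKM + 0.5), which understates changes of genes with few reads, and was tested with limma over all genes whose scaled RPKM averaged 1 or more, at an adjusted p under 0.05. Nothing in the labels says that the replicates came from separate cultures, so p-values measure only the spread between libraries, which may be technical. All 31 members passed this minimum in footprints and 29 in RNA-seq, where Ercc6 and Uvssa did not. Translation efficiency (TE), the ratio of footprints to RNA, was tested in the same 29.

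E-cadherin and the keratins Krt8, Krt18 and Krt19 matched the labelled cell type, while the keratin Krt7 was far lower. Krt7 had 21.2 ± 1.02 footprint RPKM with PBS (SD, n = 2) and 9.64 ± 0.638 at 21 h. The keratins Krt8, Krt18 and Krt19 had 4749 ± 98.8, 1645 ± 106 and 2883 ± 282 footprint RPKM with PBS (SD, n = 2), E-cadherin (Cdh1) had 143 ± 5.86 and the ductal factor Sox9 12.1 ± 1.32, while Epcam had 1.26 ± 0.812 and Cldn4 0.152 ± 0.216. Vimentin (Vim), a mesenchymal filament gene, was also high at 3610 ± 5.42. Other lineages were low, as were Epcam and Cldn4, with the 4 fibroblast genes summing to 0.534 and 1.32 footprint RPKM with PBS and 1.06 and 4.18 at 21 h. Leukocyte genes summed to 1.44 and 2.35 with PBS and 5.40 and 2.92 at 21 h, and the endothelial genes to 0 and 0.0912, then 0.362 and 0.264. Of the acinar genes only Cela1 had reads, with 1.69 and 3.23 footprint RPKM with PBS and 6.12 and 6.10 at 21 h, while its RNA-seq RPKM was 2.499 ± 0.424 with PBS and 1.38 ± 1.34 at 21 h. In footprints all 4 endocrine genes were at 0. Summed footprint RPKM of the 8 epithelial markers, of which Krt8 was the most abundant, was 9795 and 9113 with PBS, 9371 and 9314 at 6 h and 6728 and 6861 at 21 h. Krt8 and Krt19 carried the lower sum, at 3238 ± 33.7 and 1662 ± 76.6 at 21 h, while Krt18 was at 1762 ± 132 and Sox9 at 26.8 ± 5.71. The 4 mesenchymal genes also summed to less at 21 h, 2989 and 2920 against 3700 and 3693. The part of these levels in the results was not tested. In bulk libraries, fewer cells of a kind and less RNA per cell cannot be told apart.

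With PBS, the members spanned a wide range of footprint levels. The most abundant were Gtf2h5, the smallest TFIIH subunit, at 1542 ± 91.8 RPKM (SD, n = 2), and Hmgn1, a nucleosome-binding protein, at 1352 ± 52.0. Among damage sensors, Rad23b, the partner that stabilises XPC, had 330 ± 22.8 RPKM and Ddb1, the adaptor of the CUL4 ubiquitin ligase, 268 ± 0.660, against 12.9 ± 0.894 for Xpc and 5.60 ± 1.21 for the damage-binding subunit Ddb2. Lowest of all was Ercc6 at 1.49 ± 0.148. RPA subunits lay between, with 111 ± 3.14 for Rpa1, 105 ± 17.1 for Rpa3 and 52.0 ± 1.04 for Rpa2, where the first pair did not differ beyond their spread. The nucleases were low, at 13.8 ± 0.115 for Ercc1, 7.89 ± 1.08 for Ercc4 and 3.79 ± 0.0906 for Ercc5. In the TFIIH kinase module, Mnat1 had 59.4 ± 3.42, the cyclin Ccnh 40.4 ± 0.509 and the kinase Cdk7 30.1 ± 0.830 RPKM. Lig3 and Xrcc1, which seal the nick, had 19.9 ± 0.0881 and 27.0 ± 2.82.

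Footprints per RNA differed widely among members. The ratio of footprint to RNA RPKM in same-numbered PBS libraries was 63.3 and 78.1 for Gtf2h5, whose coding sequence is 213 nucleotides long. By the mean log2 ratio, with 0.5 added to each RPKM, Gtf2h5 ranked 3 from the highest of the 9312 genes tested for TE. Among the members, Hmgn1 came next with ratios of 9.49 and 9.88, and then Mnat1 with 9.52 and 8.45. The lowest among the members tested were Gtf2h1, a core TFIIH subunit, with a mean of 1.61 ± 0.279, and Ercc8, with 1.78 ± 0.679, whose spreads overlap. On the log2 scale the members' median was 2.18, against 1.68 over all genes tested. Lars2, Tmem38b and Mettl26 took 54.5% and 53.8% of reads in the PBS RNA-seq libraries and 0.0% in those of footprints. This lowers the RNA RPKM of other genes and raises these ratios. The ratio of Ddb2 was not read, because its PBS RNA-seq libraries held 3 and 1 reads.

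At 6 h no member passed the test in any measure. In footprints 0 of 31 members were called, against 2.04% of all genes, and their median change was -0.02 (all genes, -0.01). At an unadjusted p under 0.05 there were 5 (all genes, 21.3%), and limma's voom on the recovered reads called 2 (all genes, 12.3%), Rpa2 and Gtf2h5, both higher. In RNA-seq 0 of 29 members and 0% of all genes were called, with 8 members under an unadjusted p of 0.05 (all genes, 11.5%) and 1, Mnat1, called lower by voom (all genes in either direction, 2.55%). TE gave 0 of 29 members and 0% of all genes at 6 h, with 3 members under an unadjusted p of 0.05 (all genes, 7.65%) and 0 called by voom (all genes, 0.15%). At 21 h TE gave 0 of 29 members, against 0.408% of all genes, with 1 under an unadjusted p of 0.05 (Mnat1, 0.60 on the log2 scale, adjusted p = 0.269; all genes, 12.7%) and 0 called by voom (all genes, 1.63%). A count of 0 does not show that no member changed, since each member's SE was wider for TE than for footprints.

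At 21 h against PBS, footprints of Xab2, Hmgn1, Ercc3, Gtf2h5, Rpa1, Rpa2 and Ercc1 were called higher, and those of Rad23b and Mnat1 lower. In RNA-seq, Ercc8, Hmgn1, Gtf2h1, Gtf2h5, Rpa1, Rpa2 and Ercc1 were called higher, and Mnat1 lower. In footprints 7 of 31 members (22.6%) rose, against 18.9% of all genes, and 2 (6.45%) fell, against 20.2%. The share that rose was near that of all genes, and the share that fell was lower. In RNA-seq 7 of 29 (24.1%) rose, against 11.6% of all genes, and 1 (3.45%) fell, against 12.2%. Both assays called Hmgn1, Gtf2h5, Rpa1, Rpa2 and Ercc1 higher, 5 of the 29 members against 8.33% of all genes tested in both, and 1, Mnat1, lower, against 9.93%. The members' median change was 0.23 in footprints and 0.33 in RNA, against 0.01 and 0.02 over all genes. Both 21 h libraries lay above both PBS libraries for 18 of 31 members in footprints, against 35.3% of all genes, and below them for 7, against 35%. For RNA-seq these were 14 of 29, against 33.2%, and 3, against 30.7%. The smallest p that exact permutation of 2 and 2 libraries allows is 0.333.

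**Figure D1:**
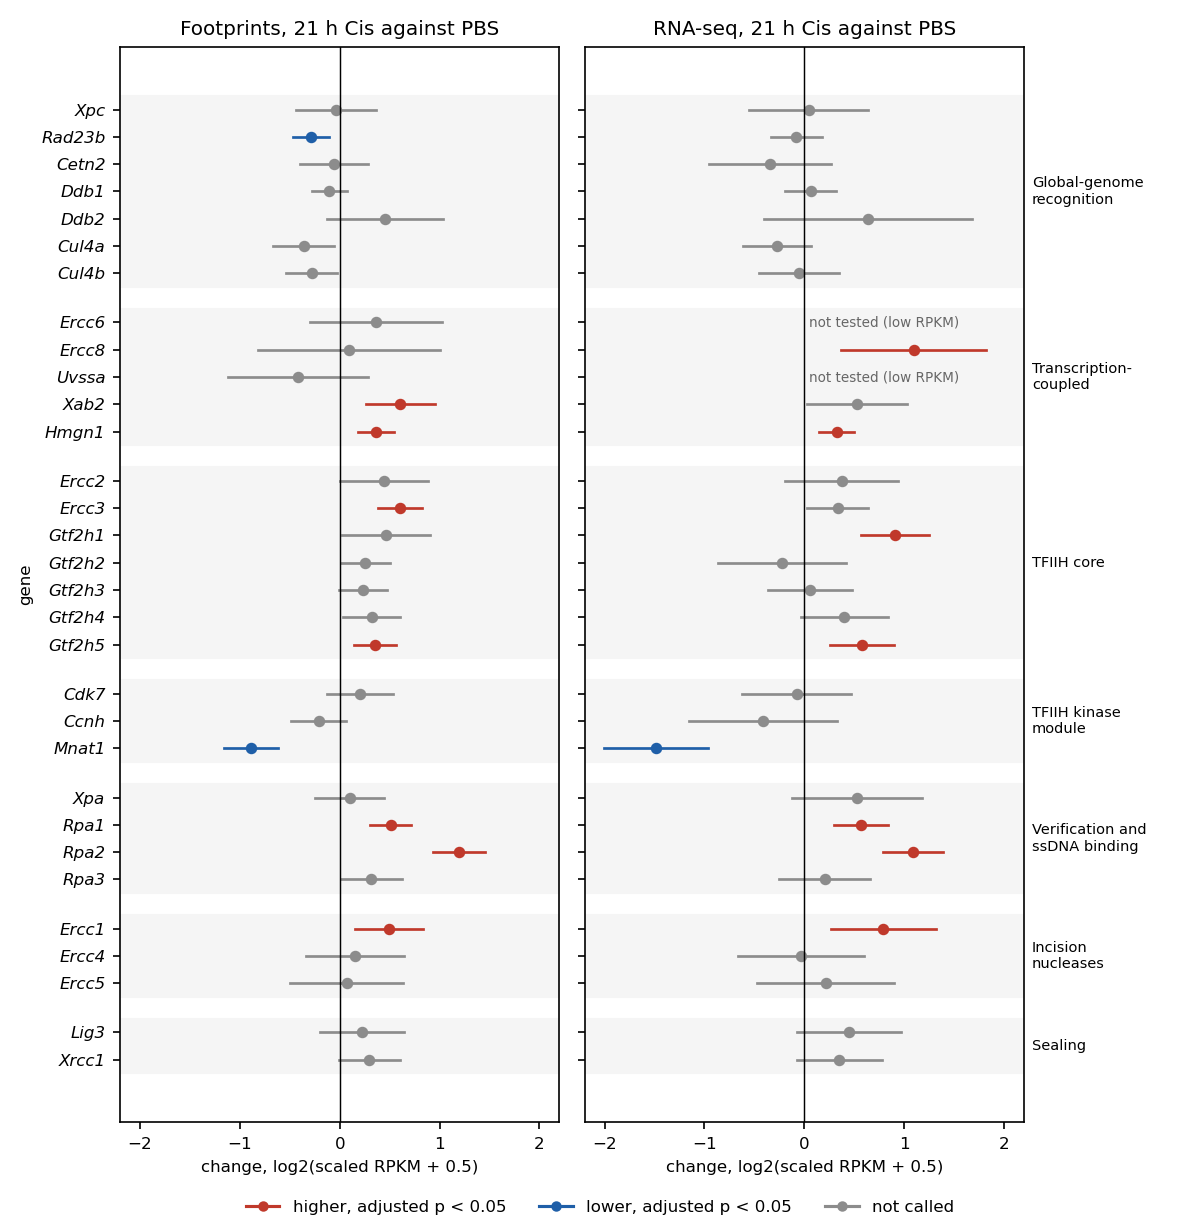
Change of each member at 21 h of Cis against PBS, in log2(scaled RPKM + 0.5), with its 95% confidence interval from limma (2 libraries per group), by role in the pathway; red and blue mark members called higher and lower. All 7 core TFIIH subunits lie right of 0 in footprints, and Mnat1 lies farthest to the left in both assays.

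In global-genome damage recognition 0 of 7 members rose at 21 h in footprints (all genes, 18.9%) or RNA (11.6%), and 1 fell in footprints (20.2%). With 7 genes these counts are near those shares. The median change was -0.10 in footprints, and -0.19 with quantile normalization. In RNA it was -0.06, or 0.02 with RPKM as deposited and -0.11 with quantile normalization. Footprint RPKM of Rad23b was 346 and 314 with PBS, 319 and 324 at 6 h and 284 and 271 at 21 h. Both 21 h libraries lay below the other 4. The change at 21 h was -0.28 (SE 0.08, adjusted p = 0.0207), and this call ended without PBS replicate 1 (adjusted p = 0.0847), without 21 h replicate 2 (0.0923) and with eBayes without a trend (0.0941). Its RNA-seq RPKM was 52.1 and 53.5 with PBS, 51.4 and 50.4 at 6 h and 56.6 and 49.6 at 21 h, and the 21 h libraries overlapped both other groups.

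Cul4a, a scaffold of the ubiquitin ligase that carries DDB2 or CSA, had 37.0 and 38.0 footprint RPKM with PBS, 38.7 and 39.9 at 6 h and 33.5 and 26.5 at 21 h. The 21 h libraries were the lowest and also the most spread. Against PBS the change was -0.36 (SE 0.13, adjusted p = 0.0619), from -0.52 to -0.19 over its alternative fits. It was called with voom and without 21 h replicate 1. Its RNA-seq RPKM was 19.2 and 18.4 with PBS, 17.6 and 16.7 at 6 h and 14.3 and 18.7 at 21 h. A 21 h library lay within the PBS range before scaling, and both 21 h libraries lay below it after scaling. The RNA change at 21 h was -0.28 and was not called. The related scaffold Cul4b changed by -0.28 in footprints (adjusted p = 0.0786). There voom called both scaffolds lower at 21 h (all genes in either direction, 44.8%). Ddb1 (-0.10), the centrin Cetn2 (-0.05) and Xpc (-0.04) were near no change in footprints, and none was called. Ddb2 had 4.75 and 6.46 footprint RPKM with PBS, 3.62 and 5.49 at 6 h and 7.95 and 7.95 at 21 h, from 22 to 39 reads a library. The 21 h pair was highest, and 6 h overlapped PBS. The change at 21 h against PBS was 0.45 and was not called (adjusted p = 0.193). No RNA fold is read for Ddb2, whose RNA-seq libraries held 1 to 6 reads. Its RNA change is still drawn in the figures of changes at 21 h, and Ddb2 enters the RNA and TE counts and medians.

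Among transcription-coupled repair factors, 2 of 5 rose in footprints at 21 h (Xab2 and Hmgn1; all genes, 18.9%), and in RNA-seq 2 of 3 tested (Ercc8 and Hmgn1; all genes, 11.6%). Xab2, an XPA-binding protein that also works in splicing, had 30.9 and 27.7 footprint RPKM with PBS, 37.6 and 32.8 at 6 h and 40.2 and 52.5 at 21 h. Every 21 h library lay above every other. The change was 0.61 (SE 0.15, adjusted p = 0.0133), a 1.52-fold rise, and the call ended without PBS replicate 2 (adjusted p = 0.0765) or without 21 h replicate 2 (0.0682). In RNA-seq Xab2 had 8.04 and 7.21 RPKM with PBS, 8.09 and 5.18 at 6 h and 12.4 and 11.4 at 21 h, without overlap between 21 h and the rest, and a change of 0.53 that missed the threshold (adjusted p = 0.117).

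Hmgn1 had 1315 and 1389 footprint RPKM with PBS, 1290 and 1285 at 6 h and 1716 and 1862 at 21 h. Its RNA-seq RPKM was 139 and 141, then 147 and 137, then 183 and 189. The 21 h libraries stood above all others in both assays. Changes at 21 h were 0.37 (SE 0.08, adjusted p = 0.0067) in footprints and 0.33 (SE 0.08, adjusted p = 0.0156) in RNA. The RNA call ended without PBS replicate 1 (adjusted p = 0.0807), PBS replicate 2 (0.0845) or 21 h replicate 1 (0.0583). With eBayes without a trend, both calls ended, at adjusted p = 0.0551 for footprints and 0.159 for RNA. Hmgn1 has processed pseudogene copies, so reads shared with them are uncertain.

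Ercc8, the substrate receptor of the CSA ubiquitin ligase, had 1.92 and 1.80 RNA-seq RPKM with PBS, 3.58 and 1.64 at 6 h and 4.88 and 4.76 at 21 h, from 8 to 24 reads a library. The 21 h pair stood above the rest, and 6 h overlapped PBS. The change was 1.10 (SE 0.33, adjusted p = 0.0355), a 2.14-fold rise, and the call ended when any of the 4 libraries compared was left out, with adjusted p of 0.118 and 0.139 without PBS replicates 1 and 2 and 0.127 and 0.107 without 21 h replicates 1 and 2. It also ended with no filter (0.089) and with eBayes without a trend (0.06). Its footprints were 4.36 and 2.34 with PBS, 4.65 and 2.24 at 6 h and 2.73 and 4.57 at 21 h, and all groups overlapped. TE at 21 h was 0.498-fold that with PBS (adjusted p = 0.49) and was not called. Ercc6, the CSB translocase, changed by 0.36 in footprints from 26 to 35 reads a library, and Uvssa, which stabilises CSB, by -0.42 from 15 to 36 reads, and neither was called.

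In core TFIIH every member's footprint change lay above 0, as also among the 4 verification, 3 nuclease and 2 sealing genes. At 21 h 7 of 7 subunits had a change above 0, from 0.23 to 0.60 with a median of 0.35, and both 21 h libraries lay above both PBS libraries for all 7. Over all genes, 5252 of 10390 changes lay above 0 and 35.3% had both libraries above. Of the 7, 2 passed the test, Ercc3 and Gtf2h5, near the share of 18.9% over all genes. All 7 were also above 0 with RPKM as deposited and with quantile normalization. In RNA-seq 6 of 7 changes were above 0 (5 with quantile normalization), against 4837 of 9459 over all genes. There 2 passed, Gtf2h1 and Gtf2h5, both higher, against 11.6% of all genes called higher. Ercc3, the XPB translocase that opens DNA, had 60.0 and 64.2 footprint RPKM with PBS, 61.3 and 62.1 at 6 h and 98.5 and 94.95 at 21 h. The 6 h libraries lay within the PBS range, and the 21 h libraries far above it. The change at 21 h was 0.60 (SE 0.10, adjusted p = 0.00174), a 1.52-fold rise, called in all 16 alternative fits. RNA-seq RPKM of Ercc3 was 16.5 and 15.3 with PBS, 17.7 and 17.4 at 6 h and 21.9 and 20.9 at 21 h, again with the 21 h pair highest, and a change of 0.33 was not called (adjusted p = 0.108).

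Gtf2h1, the p62 subunit that contacts XPC and UVSSA, had 9.29 and 9.46 RNA-seq RPKM with PBS, 12.2 and 12.5 at 6 h and 17.3 and 21.0 at 21 h. The groups did not overlap, and 6 h lay between. The RNA change at 21 h was 0.90 (SE 0.15, adjusted p = 0.00292), a 1.87-fold rise, called in all 17 alternative fits. Its footprints were 13.1 and 17.1 with PBS, 12.7 and 17.1 at 6 h and 21.6 and 21.1 at 21 h, with wide spread outside 21 h and a change of 0.46 (adjusted p = 0.0905). The TE change was -0.44 and was not called.

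Gtf2h5, the TTDA subunit that stabilises TFIIH, had 1477 and 1607 footprint RPKM with PBS, 2006 and 1846 at 6 h and 1907 and 2141 at 21 h. Both times lay above PBS and overlapped each other. In RNA-seq it had 23.3 and 20.6 RPKM with PBS, 23.6 and 29.3 at 6 h and 33.7 and 36.4 at 21 h, with the 21 h pair highest. Changes at 21 h were 0.35 (SE 0.09, adjusted p = 0.0161) in footprints and 0.58 (SE 0.14, adjusted p = 0.0169) in RNA. The footprint call ended without PBS replicate 1 (adjusted p = 0.078), without 21 h replicate 2 (0.0776) and with eBayes without a trend (0.0844). The RNA call ended without PBS replicate 2 (0.116), without 21 h replicate 1 (0.0549) or 2 (0.0749) and with eBayes without a trend (0.0705). The footprint change at 6 h was 0.31 (adjusted p = 0.115).

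The other core subunits were not called by limma on log2 RPKM in footprints at 21 h. By contrast, voom called Ercc2, Gtf2h4 and Gtf2h1 higher (all genes in either direction, 44.8%). Ercc2 was also called without 21 h replicate 2, and Gtf2h4 with RPKM as deposited. Ercc2, the XPD helicase that checks for damage, changed by 0.44 in footprints (adjusted p = 0.0989), from 0.23 to 0.67 over its alternative fits. Gtf2h4, the p52 subunit that anchors XPB, changed by 0.32 (adjusted p = 0.0705). Gtf2h2 (0.26) and Gtf2h3 (0.23), which form part of the same ring, had adjusted p of 0.0938 and 0.113. In RNA the 4 changes were 0.37, 0.40, -0.22 and 0.06 in the order Ercc2, Gtf2h4, Gtf2h2 and Gtf2h3. The last pair changed sign over their alternative fits, from -0.60 to 0.15 for Gtf2h2 and from -0.02 to 0.14 for Gtf2h3.

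The TFIIH kinase module (CAK) phosphorylates RNA polymerase II and is released from TFIIH during NER. At 21 h 1 of its 3 members was called, Mnat1, lower in footprints (all genes, 20.2%) and in RNA (12.2%). Mnat1, the MAT1 subunit that joins CAK to the core, had 61.8 and 56.9 footprint RPKM with PBS, 53.1 and 48.3 at 6 h and 30.4 and 34.9 at 21 h. Its RNA-seq RPKM was 6.49 and 6.74 with PBS, 2.82 and 2.59 at 6 h and 2.23 and 2.10 at 21 h, from 40 and 49 reads with PBS and 11 to 15 reads in the Cis libraries. The 3 groups did not overlap in either assay, and at 6 h RNA lay near its 21 h level while footprints lay nearer their PBS level. At 21 h the footprint change was -0.89 (SE 0.12, adjusted p = 0.000667), a fall to 0.540-fold, and RNA fell by 1.49 (SE 0.23, adjusted p = 0.00204), to 0.357-fold. Both calls held in all 16 alternative fits that could test Mnat1. The RNA change at 6 h was -1.09 (SE 0.23, unadjusted p = 0.000862), which missed the threshold after adjustment (adjusted p = 0.208, 0.0453 to 0.596 over its alternative fits). TE changes were 0.85 at 6 h and 0.60 at 21 h, with adjusted p of 0.265 and 0.269.

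Cdk7 and Ccnh, the kinase and its cyclin, were not called. Footprint changes at 21 h were 0.20 for Cdk7 (adjusted p = 0.298) and -0.21 for Ccnh (adjusted p = 0.202), and RNA changes were -0.08 and -0.41.

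RPA and XPA bind and verify the opened DNA. Of these 4 genes, 2 rose in footprints (all genes, 18.9%) and 2 in RNA (all genes, 11.6%) at 21 h, Rpa1 and Rpa2 in both. Rpa2, the RPA32 subunit that checkpoint kinases phosphorylate, had 51.2 and 52.7 footprint RPKM with PBS, 84.5 and 69.9 at 6 h and 121 and 124 at 21 h. Its RNA-seq RPKM was 13.0 and 13.3 with PBS, 15.3 and 16.7 at 6 h and 29.4 and 31.1 at 21 h. No groups overlapped in either assay, and 6 h lay between PBS and 21 h. The change at 21 h was 1.19 in footprints (SE 0.11, adjusted p = 0.000142), a 2.29-fold rise, and 1.09 in RNA (SE 0.13, adjusted p = 0.000632), a 2.13-fold rise, the largest footprint rise of the 31 members. Both calls held in every alternative fit, 16 for footprints and 17 for RNA. At 6 h the footprint change was 0.54 (SE 0.11) with adjusted p = 0.0509, and 8 of 16 alternative fits called it (adjusted p 0.00302 to 0.241).

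Rpa1, the large DNA-binding subunit, had 114 and 109 footprint RPKM with PBS, 106 and 117 at 6 h and 166 and 160 at 21 h. In RNA-seq it had 23.2 and 21.3 with PBS, 25.2 and 26.4 at 6 h and 33.7 and 36.8 at 21 h. Footprints at 6 h overlapped PBS, and the 21 h pair was highest in both assays. Changes at 21 h were 0.51 (SE 0.09, adjusted p = 0.00258) in footprints, called in all 16 alternative fits, and 0.57 (SE 0.12, adjusted p = 0.00929) in RNA, where the call ended without PBS replicate 2 (adjusted p = 0.0734). Rpa3, the smallest subunit, changed by 0.32 in footprints (adjusted p = 0.0946) and 0.20 in RNA, from 18 to 27 RNA-seq reads a library. Xpa changed by 0.10 in footprints and by 0.53 in RNA (adjusted p = 0.22), from 6 to 13 RNA-seq reads a library.

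Among the incision nucleases 1 of 3, Ercc1, was called higher at 21 h, in footprints (all genes, 18.9%) and in RNA (all genes, 11.6%). Ercc1, the partner that places XPF on DNA and also serves crosslink repair, had 13.8 and 13.9 footprint RPKM with PBS, 13.1 and 11.6 at 6 h and 21.2 and 19.2 at 21 h. In RNA-seq it had 2.07 and 2.76 with PBS, 4.40 and 4.41 at 6 h and 4.37 and 5.22 at 21 h, from 7 to 15 reads a library. In footprints the 21 h pair alone was high, and in RNA both times were above PBS. Changes at 21 h were 0.49 in footprints (SE 0.15, adjusted p = 0.0277) and 0.79 in RNA (SE 0.24, adjusted p = 0.0364). The footprint call ended without PBS replicate 1 (adjusted p = 0.113) or 2 (0.0887), without 21 h replicate 1 (0.0974) and with voom (0.0541). The RNA call ended when any of the 4 libraries compared was left out (0.192 and 0.0684 without PBS replicates 1 and 2, 0.0832 and 0.154 without 21 h replicates 1 and 2), with no filter (0.0737), with only the groups compared in the model (0.0522) and with voom (0.202). At 6 h the RNA change of 0.82 (adjusted p = 0.289) and a TE 0.501-fold that with PBS (adjusted p = 0.297) were not called.

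The nucleases Ercc4 and Ercc5 were not called. Ercc4 had a footprint change of 0.15 and an RNA change of -0.03 at 21 h, and Ercc5 had 0.07 and 0.22, with 8 to 25 RNA-seq reads a library. All 3 footprint intervals overlap (0.16 to 0.83 for Ercc1, -0.33 to 0.64 for Ercc4 and -0.49 to 0.64 for Ercc5), and no test compared these genes. The sealing pair were not called either. Lig3 had 0.22 in footprints (adjusted p = 0.364) and 0.45 in RNA (adjusted p = 0.192), and Xrcc1 0.30 (adjusted p = 0.111) and 0.35 (adjusted p = 0.211), with both 21 h libraries above both PBS libraries in each assay.

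**Figure D2:**
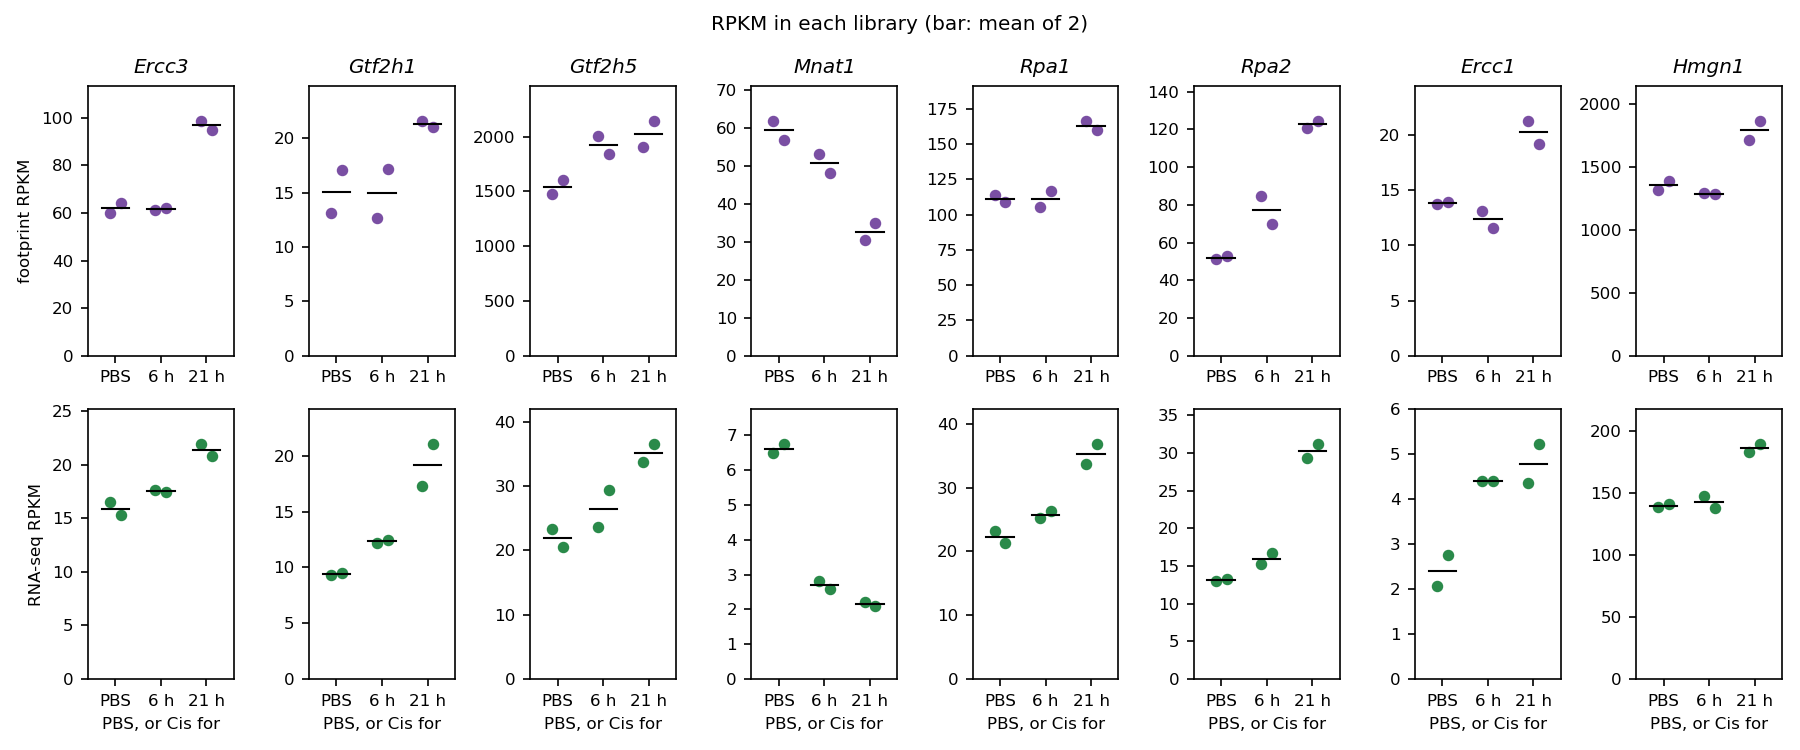
RPKM in each library, as deposited, for 8 members with PBS and after 6 h or 21 h of Cis (top, footprints; bottom, RNA-seq; points are libraries and bars the mean of 2). Footprints of Rpa2 rise from 51.2 and 52.7 through 84.5 and 69.9 to 121 and 124, while RNA of Mnat1 is at 2.82 and 2.59 by 6 h and footprints are at 30.4 and 34.9 at 21 h.

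Cis for 21 h was also compared with Cis for 6 h, which tests whether the change from PBS differed between the times, since both share the PBS libraries. In footprints 6 of 31 members were higher at 21 h, against 15% of all genes, and 2 lower, against 15.7%. The higher were Ercc1 (0.67, adjusted p = 0.0108), Rpa2 (0.65, adjusted p = 0.00387), Ercc3 (0.62, adjusted p = 0.0024), Ercc2 (0.61, adjusted p = 0.0408), Rpa1 (0.53, adjusted p = 0.00349) and Hmgn1 (0.45, adjusted p = 0.00399). Ddb2 had the largest change, 0.75, and was not called (adjusted p = 0.0546, under 0.05 in 6 of 16 alternative fits). Lower were Mnat1 (-0.65, adjusted p = 0.00457) and Cul4a (-0.41, adjusted p = 0.0461). In RNA-seq 1 of 29 was higher, Rpa2 (0.75, SE 0.13, adjusted p = 0.00613), against 7.53% of all genes, and 0 lower, against 8.2%. At an unadjusted p under 0.05 there were 7 of 29 in RNA (2935 of 9459 genes), and voom called 3 (all genes, 21.3%).

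The calls for Cul4a and Ercc2 in this comparison were the least firm. Ercc2 had 10.4 and 9.22 footprint RPKM with PBS, 9.16 and 8.32 at 6 h and 16.2 and 11.8 at 21 h, so that the 21 h pair was highest and far apart. Its call ended without PBS replicate 1 (adjusted p = 0.0616) or 2 (0.0614), without 6 h replicate 1 (0.0978) or 2 (0.169) and without 21 h replicate 1 (0.189), where its change was 0.40. The call for Cul4a ended without PBS replicate 1 (0.0678) or 2 (0.0675), without 6 h replicate 1 (0.134) or 2 (0.182) and without 21 h replicate 2 (0.209), where its change was -0.25. That for Ercc1 ended without 6 h replicate 2 (0.0749). Other processing choices also ended the calls for Cul4a and Ercc2, with adjusted p of 0.0556 to 0.0889.

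Other NER genes are given for 21 h against PBS, where footprints of 18.9% of all genes rose and 20.2% fell, and RNA of 11.6% rose and 12.2% fell. Of 16 gap-filling and ligation genes, footprints of 7 rose and 1 fell at 21 h, with a median change of 0.41, and RNA of 7 rose and 0 fell, higher shares of rises than over all genes. The sliding clamp Pcna (0.55, adjusted p = 0.000527) and the clamp loader subunit Rfc3 (0.92, adjusted p = 0.000982) had the smallest p among the rises in footprints, and the polymerase delta subunit Pold3 fell by 0.58 (adjusted p = 0.0066). Rfc4 had a TE change of -0.84 (adjusted p = 0.0408), the only TE call in that list. Of 17 further factors, footprints of 5 rose, led by Stk19 (1.26, adjusted p = 0.000746) and the COP9 signalosome subunit Cops2 (0.48, adjusted p = 0.00346), and 1 fell, the deubiquitinase Usp7 (-0.52, adjusted p = 0.0239). In RNA 1 of these 17 rose and 0 fell.

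Genes of other excision pathways were counted against the same shares of all genes (18.9% and 20.2% in footprints, 11.6% and 12.2% in RNA). In base excision repair 7 of 14 tested rose in footprints at 21 h and 0 fell, with Fen1 (1.49, adjusted p = 2.3e-05) and Neil3 (1.23, adjusted p = 0.000293) first, while in RNA 4 of 13 rose and 3 fell. In mismatch repair 1 of 8 rose in footprints, Exo1 (0.73, adjusted p = 0.00727), and 2 fell, Pms1 (-1.46, adjusted p = 0.0185) and Msh3 (adjusted p = 0.0244), with a median change of -0.32. In RNA 1 of 8 rose and 1 fell, with a median of 0.33. No test compared these lists with the NER members.

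Members differ in the length of DNA they span, which RefSeq genes on GRCm38.p6 gave for all 31 members and 99.1% of all genes. Mnat1 spans 161.8 kb and was the only member over 100 kb, with Ercc6 next at 67.7 kb and Rpa3 shortest at 3.2 kb. Over all genes, the median footprint change at 21 h was 0.20 under 10 kb, 0.17 from 10 to 30 kb, -0.17 from 30 to 100 kb and -1.08 above 100 kb. In RNA these medians were 0.13, 0.17, -0.08 and -0.86. The members in the first 3 classes had footprint medians of 0.32 (5 genes), 0.37 (14 genes) and 0.09 (11 genes). Their RNA medians were 0.33 (5 genes), 0.41 (14 genes) and -0.06 (9 genes), the last near that of all genes. The rank correlation of span with the footprint change at 21 h was -0.49 over all genes and -0.39 over the members. For the RNA change these were -0.37 and -0.28. They are descriptions, since genes do not replicate each other. The footprint change of Mnat1, -0.89, lay within the quartiles of genes above 100 kb (-1.76 to -0.62). Its RNA change, -1.49, lay below theirs (-1.41 to -0.40). Rpa1 spans 48.2 kb and rose by 0.51, above the upper quartile of 0.15 for genes of 30 to 100 kb. At 6 h the RNA change of Mnat1, -1.09, also lay below the quartiles of genes above 100 kb (-0.54 to -0.14). Its footprint change at 6 h, -0.24, lay at their upper quartile (-0.66 to -0.24). The part of span in these changes was not tested.

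**Figure D3:**
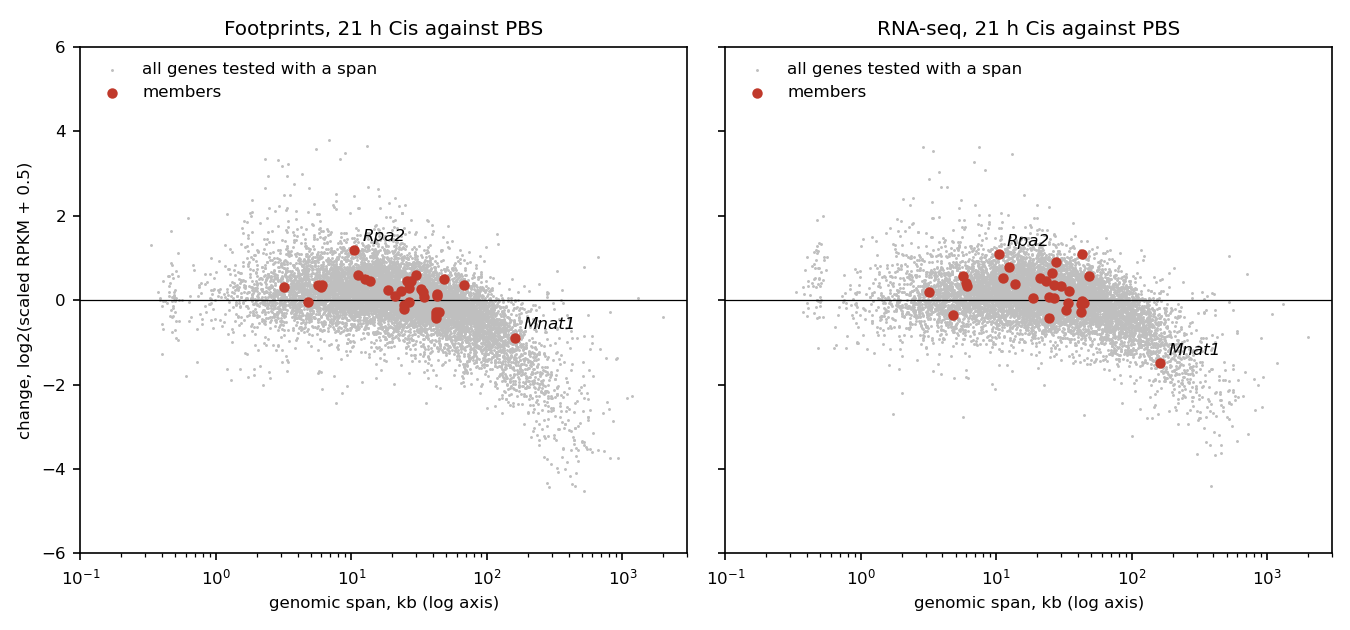
Genomic span in kb (log axis) against the change at 21 h of Cis in log2(scaled RPKM + 0.5), for footprints and RNA-seq, with all genes tested in grey and members in red. Mnat1, at 161.8 kb, is the only member among genes above 100 kb, whose median footprint change was -1.08.

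By RefSeq, 7 members overlap another protein-coding gene, among them Mnat1 (Six4 and Trmt5), Rpa1 (Smyd4), Ercc1 (Cd3eap), Ercc2 (Klc3) and Ddb2 (Acp2). These overlaps are of whole gene spans, introns included, and whether counted exons overlap was not checked. Whether the counting used strand is not given in the sources used here, so any reads from shared exons cannot be told apart.

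Promoter sequence is shown for the RPA subunits that rose together and for Mnat1, a choice made after their changes were seen. The 250 bases before the annotated start were read from RefSeq on GRCm38.p6, where 27 of 31 members had 28 promoters. They were searched on both strands for CCAAT, the letters bound by NF-Y, and for GGGCGG, the GC box. CCAAT was found in 33.8% of all 32851 promoters, 36.1% of those of genes tested in footprints and 15 of the 28 member promoters (53.6%). GGGCGG was found in 32.7%, 59.3% and 18 of 28 (64.3%). Capitals mark CCAAT or its reverse complement. Rpa2 lies at chr4:132768110-132768359 on the + strand and has 3 matches. That many or more were found in 2.79% of all promoters, 4.94% of those of genes tested in footprints and 4 of the 28 member promoters, those of Rpa2, Cetn2, Xab2 and Ercc2. Rpa1 lies at chr11:75348384-75348633 on the - strand with 1 match and 3 GC boxes, and Mnat1 at chr12:73123467-73123716 on the + strand with 0 of either. A match is a description of these letters and not a test of binding.
Rpa2: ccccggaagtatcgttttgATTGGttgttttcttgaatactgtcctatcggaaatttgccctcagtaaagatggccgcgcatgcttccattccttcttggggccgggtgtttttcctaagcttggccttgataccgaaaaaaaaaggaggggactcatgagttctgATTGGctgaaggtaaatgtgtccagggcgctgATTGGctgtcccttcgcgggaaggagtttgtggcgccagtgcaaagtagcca
Rpa1: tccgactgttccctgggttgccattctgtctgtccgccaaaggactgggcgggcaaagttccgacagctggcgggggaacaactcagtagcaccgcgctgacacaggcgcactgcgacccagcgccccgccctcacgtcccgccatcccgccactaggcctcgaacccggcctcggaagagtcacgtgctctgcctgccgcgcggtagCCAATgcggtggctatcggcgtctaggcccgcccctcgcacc
Mnat1: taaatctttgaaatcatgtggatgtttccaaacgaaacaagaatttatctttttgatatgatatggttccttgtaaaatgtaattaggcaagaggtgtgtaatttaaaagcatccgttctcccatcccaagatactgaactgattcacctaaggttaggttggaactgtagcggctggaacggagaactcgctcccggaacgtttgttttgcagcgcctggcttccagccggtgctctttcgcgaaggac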

How the data were processed

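Ribosome profiling and RNA-seq libraries of KPC cells were grouped by their labels, and the dose was taken from the study's methods. The authors deposited RPKM for each library by gene, each with a single transcript, without pooling. Genes without a read are absent from their files and count as 0. The submitters' processing notes name cutadapt, STAR and GRCm39, without versions. Multiplied by length, 100% of values were whole reads within 0.001, which gave the depth. Chi-square over its degrees of freedom between replicates was 1.46 to 4.12, above that of counting alone.

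RPKM was scaled by median-of-ratios factors, separately for footprints and RNA-seq, kept at a mean of at least 1 (10390 genes for footprints, 9459 for RNA-seq, 9312 for TE) and fitted as log2(RPKM + 0.5) with limma 3.58.1 in R 4.3.3 (eBayes with a trend, 3 groups in a model, two-sided, Benjamini-Hochberg over all genes). TE was the interaction of assay and treatment over 12 libraries. Means ± SD are of RPKM as deposited. The fits were tested on simulated data. Figures were drawn with matplotlib 3.10.9, and tables with numpy 2.4.6, pandas 2.3.3 and Python 3.11.15.

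Members, subgroups, lists and markers were chosen with earlier results of these data known. Values in every library are given for members called in any comparison, up to the 12 with the smallest adjusted p in footprints or RNA at 21 h, and for footprints of Ercc2 and Ddb2, added after their values were seen. Other members are given by change or level. From the other lists, the 2 genes with the smallest p per direction in footprints at 21 h are named, and Rfc4, added after its values were seen. Each result was also run with no filter or a mean of at least 5, pseudocounts of 0.1 and 1, RPKM as deposited, quantile normalization, eBayes without a trend, only the groups compared, the replicate number as a block, an adjusted p under 0.1, an absolute log2 change above 1, voom on recovered reads, RNA-seq totals without Lars2, Tmem38b and Mettl26, no members shared with other pathways, and each library left out in turn. TE as a ratio per replicate number was chosen after seeing the data. Alternative fits are all of these but the change of threshold, the limit on the change and the shorter list.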

Additional observations from a re-analysis of the deposited data

Results flagged for a closer look

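These results differ between the time points: the change from PBS at 21 h and that at 6 h, which share the PBS libraries, were set against each other by the limma test of 21 h against 6 h. In footprints the difference was 0.67 for Ercc1, 0.65 for Rpa2, 0.62 for Ercc3, 0.61 for Ercc2 (0.40 without 21 h replicate 1, where the call ended), 0.53 for Rpa1 and 0.45 for Hmgn1, all higher at 21 h. It was -0.65 for Mnat1 and -0.41 for Cul4a (-0.25 without 21 h replicate 2, where the call ended), both lower at 21 h. In RNA-seq it was 0.75 for Rpa2. The causes were not tested.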

How the results depend on the processing

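Members called at 21 h in footprints (9) became 16 at an adjusted p under 0.1 and 1 with an absolute log2 change above 1. In RNA at 21 h (8) they became 3 with that limit, 5 without members shared with other pathways, 5 at a mean RPKM of at least 5, 5 with eBayes without a trend, and 3 to 8 with a library left out (6 to 9 in footprints at 21 h). In footprints at 6 h (0) they were 1 at an adjusted p under 0.1, with pseudocount 1, at a mean RPKM of at least 5, with RPKM as deposited, with quantile normalization and with only the groups compared, 2 with voom, and 0 to 1 with a library left out. In footprints at 21 h against 6 h (8) they became 0 with the change limit and 4 without shared members. RNA at 6 h (0) gave 1 with voom. RNA at 21 h against 6 h (1) gave 4 at an adjusted p under 0.1, 0 with the change limit, 0 without shared members, 5 with RPKM as deposited, 2 with quantile normalization, 3 with voom and 1 to 2 with a library left out. The members' median moved from 0.12 to 0.03 without 6 h replicate 2 in footprints at 21 h against 6 h (0.03 to 0.20 over all left-out libraries), to 0.21 at a mean RPKM of at least 5 and to 0.05 without shared members, from 0.33 to 0.22 without shared members or with no filter in RNA at 21 h, and from 0.07 to 0.20 with RPKM as deposited or 0.18 without 21 h replicate 1 (0.03 to 0.18 over all left-out libraries) in RNA at 21 h against 6 h. Leaving out the scaling moved the median of all genes in that comparison from 0.01 to 0.15, and the share of calls that were higher from 47.9% to 70.6%. The causes were not tested. TE counts were 0 under every alternative run.

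The replicate number as a block gave 9 members in footprints and 8 in RNA at 21 h, 8 and 2 at 21 h against 6 h, and 0 in both assays at 6 h and in TE. At 21 h against 6 h the block ended the footprint call for Cul4a (adjusted p = 0.064) and added a call for Ddb2, giving 7 higher and 1 lower. In RNA it added Xab2. Over all genes tested, same-numbered libraries did not deviate together (correlations of -0.01 to 0.02). These correlations include the counting noise of single libraries, so they cannot exclude that same-numbered libraries were paired.

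Of 422 alternative fits of the 26 called member values, 54 (12.8%) lost the call and 0 changed sign. Among values uncalled in both fits, 161 changed sign. With a library left out, the remaining library of its group is assumed to vary like the other groups. RNA-seq depth limits Ddb2, Ercc1, Ercc4, Ercc5, Ercc6, Ercc8, Rpa3, Uvssa and Xpa, with under 30 reads in every library.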
